A study of Mus musculus with 15 samples.

Results

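Mitochondrial SLC25 carriers were followed in mouse brown adipose tissue across 2 genotypes and 2 housing temperatures. Members were the gene symbols made of Slc25a and a number, without Slc25a1, Slc25a4, Slc25a5, Slc25a20 and Slc25a44, which left 41 of 24030 symbols in the table. Of these, 36 passed the filter on low counts and were tested. The tissue came from mice with a deletion of DJ-1 (gene Park7) restricted to brown fat (labelled BDJ1KO or BAT DJ1KO, here KO) and from flox mice (labelled WT). Both genotypes were housed for 8 weeks either at room temperature or at 29 °C, and no other agent is named in the labels. Bulk RNA was sequenced in 4 WT and 4 KO libraries at room temperature and in 4 WT and 3 KO libraries at 29 °C. The labels give neither sex, age, strain nor the promoter that drove the deletion. They also do not say that every library came from its own mouse, and the p-values cover only the spread among these libraries. The series title speaks of humanized mice, a term the sample labels do not explain.

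SLC25 proteins form the family of carriers that sit mostly in the inner mitochondrial membrane and exchange metabolites, nucleotides, coenzymes, amino acids and inorganic ions between the cytosol and the matrix. The inner membrane is otherwise nearly closed to such solutes, so the carriers link cytosolic metabolism to the respiratory chain. Brown adipocytes are packed with mitochondria and oxidise fatty acids and glucose to make heat, and the uncoupling protein Ucp1 that releases this heat belongs to the same family. Housing near thermoneutrality lowers the demand for heat, whereas ordinary room temperature is a mild cold load for a mouse.

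The unit of level is CPM, a count divided by the TMM-adjusted (trimmed-mean) size of its library and brought to a shared total. Park7, the deleted gene, averaged 109.9 ± 1.65 CPM in the 4 WT libraries at room temperature and 118 ± 11.05 CPM in the 4 at 29 °C, against 28.2 ± 4.03 CPM in 4 and 31.7 ± 5.46 CPM in 3 KO libraries (SD), with no overlap between genotypes. Total estimated counts lay between 23977448 and 26789246 in 14 libraries and reached 38800967 in the remaining KO library at 29 °C. All 8 brown adipocyte markers (Ucp1, Cidea, Dio2, Elovl3, Ppargc1a, Prdm16, Cox7a1 and Otop1) were present in every group. Their summed level ran from 11097 to 13357 CPM in WT and from 7223 to 13468 CPM in KO at room temperature, and from 2274 to 3343 CPM in WT and from 8505 to 11030 CPM in KO at 29 °C. Summed transcripts of 10 skeletal muscle markers lay between 32.0 and 54.5 CPM in 12 libraries but reached 1289 CPM in WT 29 °C library 2, 537 CPM in KO 29 °C library 2 and 1558 CPM in KO 29 °C library 3. Endothelial markers (8 of 8 listed) summed to 529 to 639 CPM in WT and 453 to 576 CPM in KO at room temperature, and to 1194 to 1737 CPM in WT and 574 to 764 CPM in KO at 29 °C. Transcripts of the mitochondrial genome took 25.2 to 27.4%, 22.7 to 25.2%, 30.2 to 41.6% and 25.8 to 26.9% of all counts in the same order.

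Upstream sequences are shown for the members on which the comparisons turn. Slc25a48 had the largest difference with housing in WT and between genotypes at 29 °C. Slc25a42 was called in opposite directions with housing in the 2 genotypes, though its KO call was lost in several settings given below. Slc25a23 and Slc25a25 share a substrate and moved in opposite directions with housing. RefSeq promoters (GRCm38.p6) were found for 31 of the 41 members, with 41 start sites in all, and the 250 bases before each start were searched on both strands. Capitals mark the motif named in each line. The Slc25a48 window (chr13:56438105-56438354, plus strand) held none of the 6 motifs searched.
Slc25a48: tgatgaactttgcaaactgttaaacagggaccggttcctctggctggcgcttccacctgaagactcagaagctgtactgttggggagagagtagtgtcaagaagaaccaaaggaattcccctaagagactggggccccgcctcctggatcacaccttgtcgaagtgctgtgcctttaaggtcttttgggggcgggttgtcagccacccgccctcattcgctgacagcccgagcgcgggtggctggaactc
The Slc25a42 window (chr8:70212306-70212531, minus strand) held several CCAAT boxes, a general promoter element, written CCAAT or, on the other strand, ATTGG.
Slc25a42: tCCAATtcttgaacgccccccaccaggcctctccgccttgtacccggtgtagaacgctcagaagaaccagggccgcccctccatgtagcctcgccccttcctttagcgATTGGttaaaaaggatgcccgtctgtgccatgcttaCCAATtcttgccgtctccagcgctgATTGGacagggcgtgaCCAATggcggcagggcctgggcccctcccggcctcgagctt
The Slc25a23 window (chr17:57059864-57060113, minus strand) also held a CCAAT box.
Slc25a23: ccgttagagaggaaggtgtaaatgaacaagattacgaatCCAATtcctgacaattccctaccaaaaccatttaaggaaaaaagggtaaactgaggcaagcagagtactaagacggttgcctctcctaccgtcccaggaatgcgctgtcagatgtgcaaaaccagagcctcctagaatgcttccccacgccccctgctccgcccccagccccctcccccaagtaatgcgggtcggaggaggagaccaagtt
The cyclic AMP response element, the DNA element through which cyclic AMP signalling acts on transcription, was found in 2 member promoters. One was at Slc25a25 (chr2:32424198-32424227, minus strand), where it ended 142 bases before one of the gene's start sites. The other was at Slc25a36 (chr9:97111184-97111213, minus strand), where it ended 153 bases before the start.
Slc25a25: tctgcaagcagTGACGTCAgtcctgatctt
Slc25a36: tgcgaacctcgTGACGTCAcgcggcctaag
The letters searched for this element were TGACGTCA, and 1.55% of all 32851 promoters held them. CCAAT was present in 19 of the 41 member promoters (46.3%) and in 33.8% of all promoters, and TATAAA in 2 of 41 (4.88%) and 12.4% of all. Each start site counts as a promoter, and windows of the same gene can overlap. By gene, 16 of the 31 members held CCAAT. No member promoter held the oestrogen-related receptor element TCAAGGTCA (0.387% of all promoters), the NRF1 palindrome GCGCA followed by TGCGC (0.782%) or the PPAR element, AGGTCA given again after any single base (0.0335%). No motif contains another, and a match describes the letters only.

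The carriers spanned a wide range of levels. Per kilobase of exon, members with high levels over all libraries were Slc25a39 (95.4 CPM per kilobase), Slc25a51 (85.6), Slc25a11 (67.6) and Slc25a3 (60.8), the carriers of glutathione, NAD, 2-oxoglutarate and phosphate. Slc25a39 stood at 134 ± 7.45 CPM per kilobase in WT and 129.5 ± 14.3 in KO at room temperature (SD, here and below n = 4 libraries, or 3 in KO at 29 °C). At 29 °C it stood at 44.1 ± 4.63 in WT and 67.4 ± 8.77 in KO. Summed over all 41 members, the level was 3308 to 3573 CPM in WT and 3050 to 3493 CPM in KO at room temperature, ranges that overlapped. At 29 °C it was 1558 to 1681 CPM in WT and 2306 to 2742 CPM in KO, so that every KO library lay above every WT library and below every room temperature library. In bulk tissue, fewer cells of a type and less RNA per cell cannot be told apart. Brown adipocyte and endothelial transcripts moved with these groups as given above, and muscle transcripts stood high in 3 of the libraries at 29 °C. Macrophage markers (7 of 7 in the table) summed to 80.6 to 108 CPM in WT and 70.9 to 156 CPM in KO at room temperature, and to 190 to 293 CPM in WT and 333 to 484 CPM in KO at 29 °C. Lymphocyte markers (7 of 8 in the table) summed to 2.36 to 3.46 CPM, 2.38 to 5.10 CPM, 3.98 to 6.21 CPM and 16.9 to 19.6 CPM in the same order. The part of these cell types in the carrier levels was not tested.

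Too few counts were found to test 5 carriers. The highest count in any library was 15 for Slc25a2, 2 for Slc25a21, 22 for Slc25a31, 1 for Slc25a41 and 9 for Slc25a43. Slc25a13 and Slc25a18 passed with few counts: Slc25a13 reached 10 counts in 2 WT and 0 KO libraries at room temperature and in 4 WT and 3 KO libraries at 29 °C, and Slc25a18 in 1, 0, 1 and 1 in that order. Slc25a13 thus passed through the 29 °C groups, where it was higher. Several members overlap a gene on the opposite strand in the mm10 annotation (Slc25a10, Slc25a11, Slc25a18, Slc25a23, Slc25a25, Slc25a26, Slc25a33, Slc25a35, Slc25a37 and Slc25a46 among those tested). How strand was used in counting is not stated, so reads of such partners cannot be told apart here. The plot of members by library shows the 4 groups side by side.

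**Figure D1:**
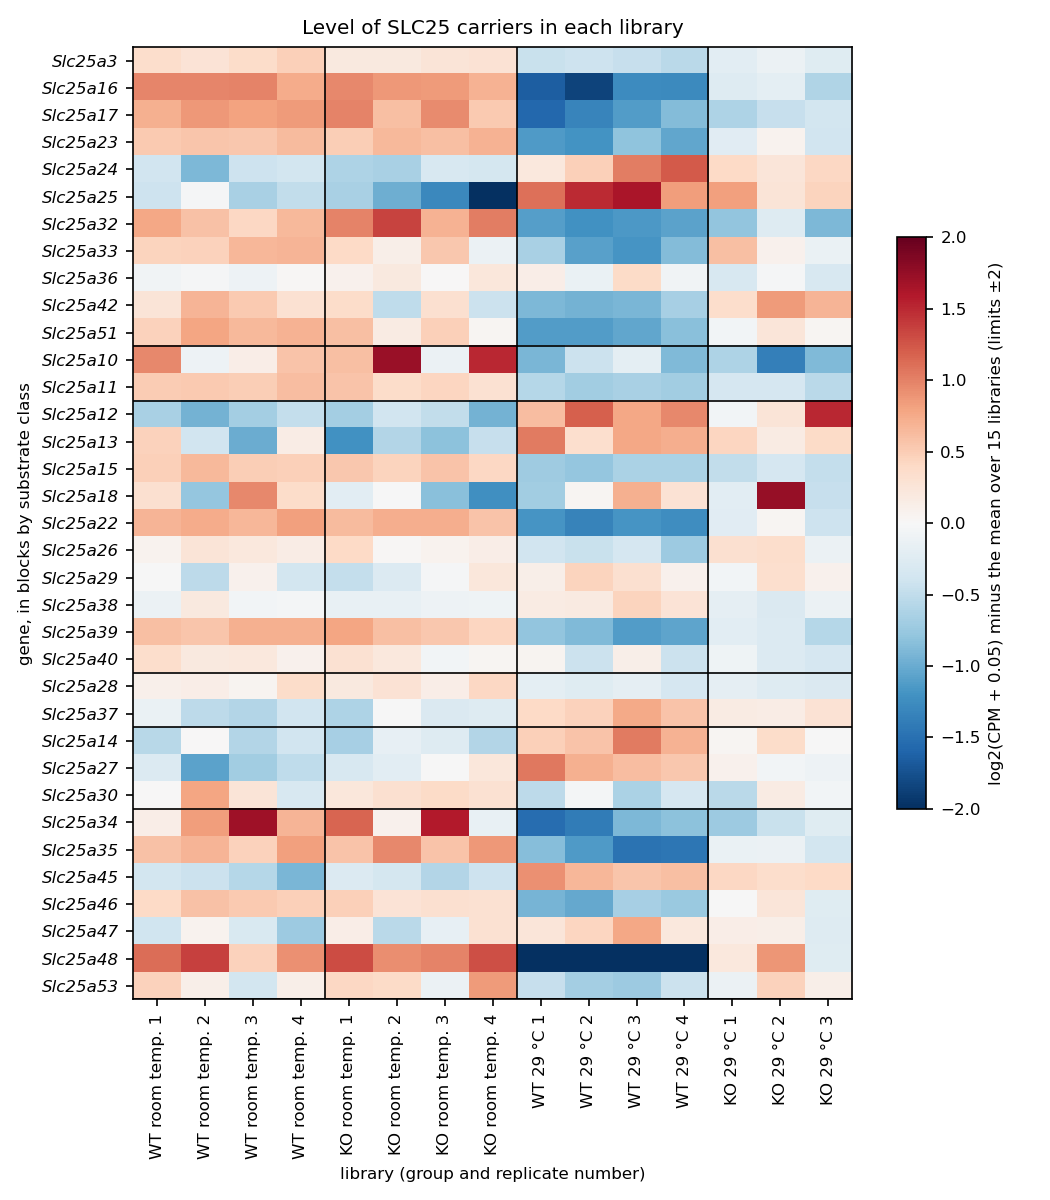
Level of tested SLC25 carriers (rows, in blocks by substrate class) in each of the 15 libraries (columns), as log2(CPM + 0.05) minus the gene's mean over all libraries, with colours limited to ±2. Most carriers of the first block are lower (blue) in the 4 WT libraries at 29 °C. In the 3 KO libraries at 29 °C they lie between these and room temperature. Slc25a12, Slc25a24, Slc25a25, Slc25a27 and Slc25a45 are higher (red) in the 4 WT libraries at 29 °C.

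Warm housing changed most carriers in WT. By edgeR's quasi-likelihood test at a Benjamini-Hochberg adjusted p under 0.05, 10 of the 36 were higher and 23 lower at 29 °C than at room temperature, against 68.8% of all genes tested called (35.9% higher and 32.8% lower). The median log2 fold change over the 36 was -0.68, beside 0.063 over all genes, and 29 members changed over 1.5-fold (51.3% of all genes). In KO, 8 were higher and 16 lower, against 46% of all genes (24.3% higher and 21.7% lower), with a median of -0.30 beside 0.039 over all genes, and 18 changed over 1.5-fold (29% of all genes). Groups did not overlap for 29 members in WT (62.6% of all genes) and 25 in KO (48.1%). Without the 3 libraries with muscle transcripts, which leaves 1 KO library at 29 °C assumed to vary like the other groups, 10 rose and 20 fell in WT, and 2 rose and 14 fell in KO, where 64.8% and 26.3% of all genes were called. Of the KO calls lost there, Slc25a10 (-1.80), Slc25a13 (1.22), Slc25a24 (0.81) and Slc25a34 (-1.66) had values near or farther from 0 than those with all libraries (-2.02, 1.1955, 0.84 and -1.31). Slc25a12 (0.49), Slc25a14 (0.37), Slc25a37 (0.37) and Slc25a42 (0.28) moved toward 0 from 1.36, 0.56, 0.49 and 0.65. The adjusted p of these 8 ran from 0.0683 to 0.535.

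The genotypes shared part of this pattern. In both genotypes 15 carriers fell (Slc25a3, Slc25a10, Slc25a11, Slc25a15, Slc25a16, Slc25a17, Slc25a22, Slc25a23, Slc25a28, Slc25a32, Slc25a34, Slc25a35, Slc25a39, Slc25a46 and Slc25a48) and 7 rose (Slc25a12, Slc25a13, Slc25a14, Slc25a24, Slc25a25, Slc25a37 and Slc25a45). Slc25a13 passed the filter through the groups where it is high, so its rise is no result. It nevertheless stands in the counts of members that rose in WT, in KO and in both, and in those of its class. Slc25a42 was called lower in WT and higher in KO, where its groups overlapped and the call was lost in several settings given below. Lower in WT without passing in KO were 7, among them Slc25a26, Slc25a30, Slc25a33, Slc25a40, Slc25a51 and Slc25a53, and higher in WT without passing in KO were 3 (Slc25a27, Slc25a38 and Slc25a47). Whether the genotypes differed in these was tested as the interaction. Slc25a36 passed as lower in KO alone, and Slc25a18 and Slc25a29 passed in neither.

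**Figure D2:**
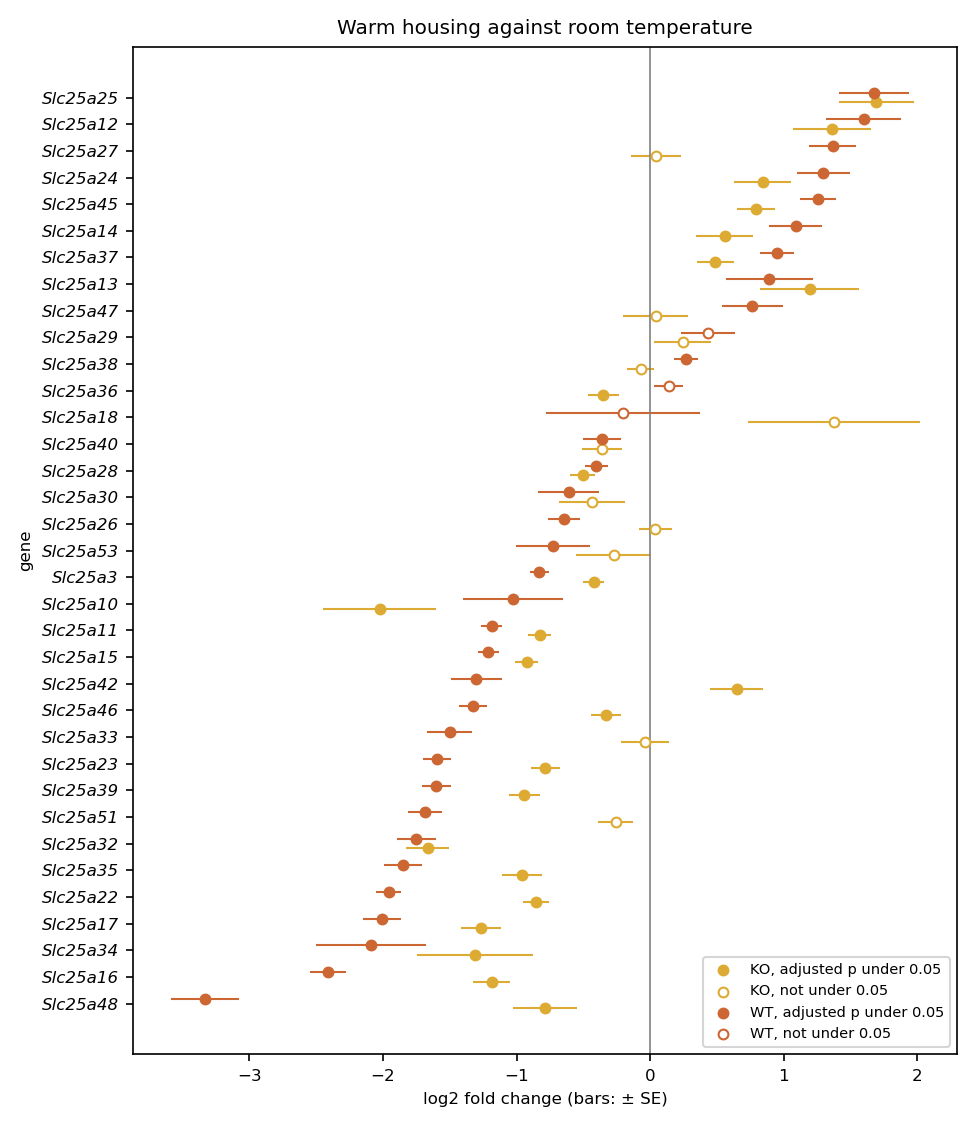
Log2 fold change (points, with bars of ± SE) of tested carriers at 29 °C against room temperature in WT (dark) and KO (light), ordered by the WT value; filled points have an adjusted p under 0.05. Slc25a48 is lowest in WT at -3.34, and for most carriers lower in WT the KO point lies nearer to 0 than the WT point.

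At room temperature no carrier passed the test between genotypes. By edgeR 0 of 36 were called, against 0.239% of all genes, and 5 had an unadjusted p under 0.05, against 11.1% of all genes. DESeq2, run on all 41 members, called 0, against 1.47% of all genes, and gave 6 with an unadjusted p under 0.05. It gave no adjusted p for 5 of the 41. The median log2 fold change was -0.02, and Slc25a25 was the 1 member whose groups did not overlap (8.21% of all genes). A count of 0 among 36 lies near the share of all genes and does not show that the genotypes were alike. The KO libraries at room temperature were uneven: brown adipocyte markers summed to 8258 and 7223 CPM in libraries 2 and 4, and to 13468 and 11772 CPM in libraries 1 and 3. At 29 °C, 18 carriers were higher and 6 lower in KO than in WT, against 44.7% of all genes called (24.7% higher and 20% lower). The median was 0.27 beside 0.043 over all genes, 15 members changed over 1.5-fold (27.7% of all genes), and the groups did not overlap for 26 members (43.1% of all genes). This comparison and the housing comparison in WT share the 4 WT libraries at 29 °C, so their values are given side by side and not related to each other.

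The interaction, which is the KO against WT difference at 29 °C minus that at room temperature, passed for 17 carriers, 15 with a positive and 2 with a negative value, against 28.3% of all genes (16% positive and 12.3% negative). The median was 0.33 beside 0.0098 over all genes, and 13 values were over 1.5-fold (21.6% of all genes). Among those that passed, the largest positive values were 2.55 for Slc25a48, 1.95 for Slc25a42, 1.46 for Slc25a33, 1.42 for Slc25a51 and 1.23 for Slc25a16, and the negative ones were -1.32 for Slc25a27 and -0.49 for Slc25a36. Of the calls, 16 of 24 between genotypes at 29 °C, 27 of 33 and 18 of 24 with housing in WT and KO, and 14 of 17 in the interaction were kept whichever single library was left out. Without the 3 libraries with muscle transcripts, which leaves 3 WT and 1 KO library at 29 °C, 12 carriers were higher and 3 lower in KO at 29 °C, while the share of all genes called went from 44.7% to 27%. One of the 12, Slc25a31, passed the filter there through the single KO library, where it is high, so that its call is no result. Among the calls lost there, Slc25a27 (-0.75), Slc25a14 (-0.80), Slc25a37 (-0.49) and Slc25a11 (0.22) kept values close to or farther from 0 than those with all libraries (-0.77, -0.58, -0.35 and 0.24). Slc25a3 (0.20), Slc25a15 (0.09), Slc25a17 (0.46), Slc25a25 (-0.49), Slc25a32 (0.24) and Slc25a53 (0.37) moved toward 0 from 0.28, 0.25, 0.72, -0.77, 0.51 and 0.78. The adjusted p of these lost calls ran from 0.0859 to 0.635, and Slc25a12 became a call (adjusted p = 0.0242).

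**Figure D3:**
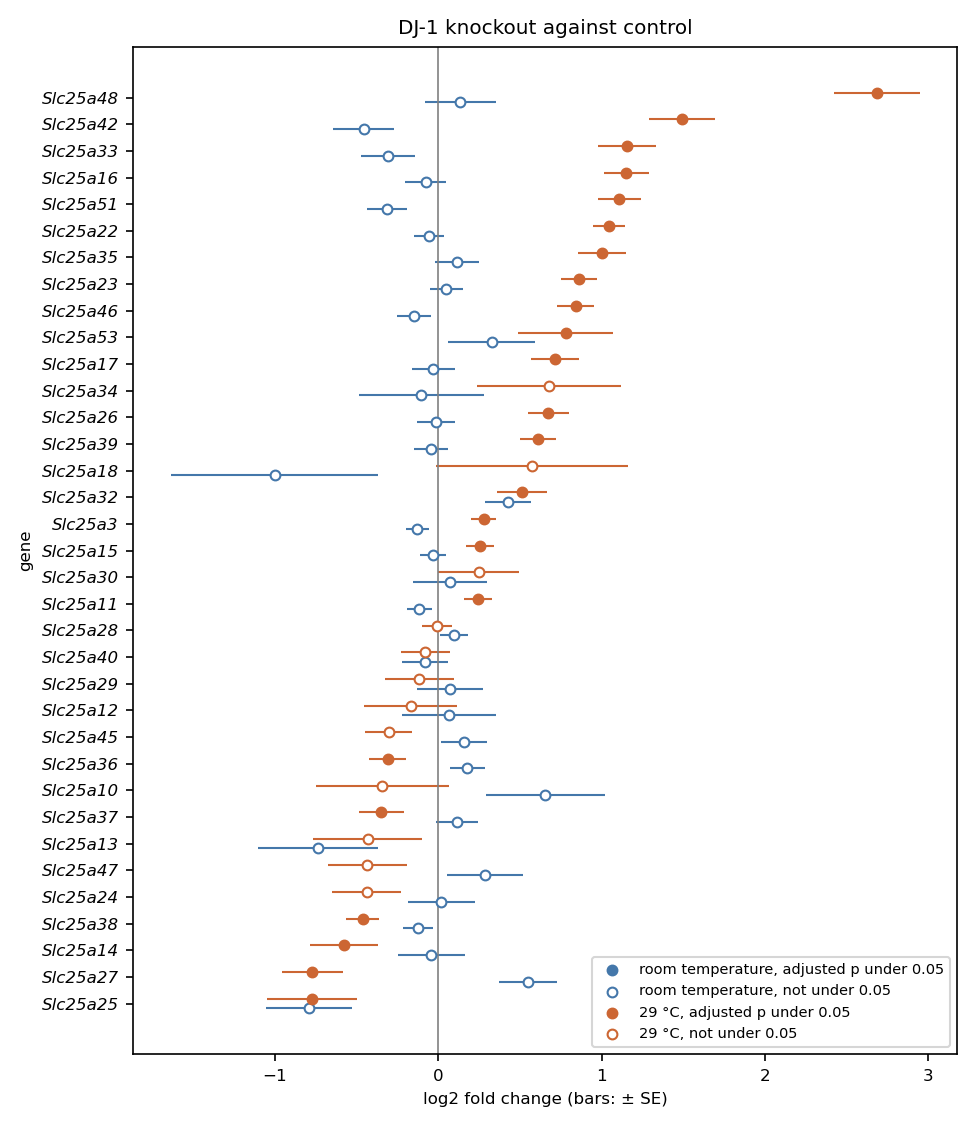
Log2 fold change (points, with bars of ± SE) of tested carriers in KO against WT at room temperature (blue) and at 29 °C (orange), ordered by the value at 29 °C; filled points have an adjusted p under 0.05. No blue point is filled, and at 29 °C the values run from -0.77 for Slc25a25 to 2.68 for Slc25a48.

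Carriers of phosphate, nucleotides and coenzymes formed the largest class, with 12 of 14 tested. In WT, 9 fell and 2 rose with warm housing, in KO 6 fell and 3 rose, and in KO against WT at 29 °C 9 were higher and 2 lower, beside 68.8%, 46% and 44.7% of all genes called, shares that also stand beside the counts of the classes below. Slc25a42, which exchanges coenzyme A for adenine nucleotides, was chosen for full description after its values were seen. Slc25a42 stood at 189, 255, 229 and 196 CPM in the WT and 206, 111, 198 and 119 CPM in the KO libraries at room temperature, and at 85.7, 82.1, 84.7 and 101 CPM in the WT and 204, 287 and 255 CPM in the KO libraries at 29 °C. The WT libraries at 29 °C were the lowest, every KO library at 29 °C was above them, and the KO groups at the 2 temperatures overlapped at 204 and 206 CPM. The log2 fold change was -1.30 ± 0.19 (adjusted p = 2.08e-05) with housing in WT, 0.65 ± 0.20 (adjusted p = 0.0152) with housing in KO, 1.49 ± 0.20 (adjusted p = 3.64e-05) between genotypes at 29 °C and -0.46 ± 0.19 (adjusted p = 0.382) at room temperature. The interaction was 1.95 ± 0.27 (adjusted p = 0.000161). The rise in KO was not called without KO 29 °C library 2 (0.53, adjusted p = 0.0705), without KO room temperature libraries 2 and 4, its 2 lowest (0.29, adjusted p = 0.161), without the 3 libraries with muscle transcripts (0.28, adjusted p = 0.535), or in a fit of only the libraries compared (0.66, adjusted p = 0.0614).

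Slc25a16 is another carrier of the family linked to coenzyme A. Slc25a16 stood at 71.7, 71.6, 73.0 and 60.8 CPM in the WT and 70.7, 66.7, 66.1 and 59.1 CPM in the KO libraries at room temperature, and at 11.7, 10.1, 15.2 and 15.1 CPM in the WT and 30.5, 32.0 and 24.1 CPM in the KO libraries at 29 °C. Every library at 29 °C lay below every library at room temperature, with KO above WT. The housing change was -2.41 ± 0.13 (adjusted p = 6.4e-10) in WT and -1.18 ± 0.14 (adjusted p = 8.52e-06) in KO, and KO exceeded WT at 29 °C by 1.15 ± 0.14 (adjusted p = 9.1e-06). Slc25a51 carries NAD into the matrix. Slc25a51 stood at 592, 744, 673 and 694 CPM in the WT and 654, 481, 596 and 441 CPM in the KO libraries at room temperature, and at 197, 197, 208 and 239.7 CPM in the WT and 414, 509 and 438 CPM in the KO libraries at 29 °C. WT libraries at 29 °C stood apart below all others, while the KO libraries at 29 °C overlapped KO at room temperature. Housing changed it by -1.68 ± 0.13 (adjusted p = 1.1e-08) in WT and by -0.26 ± 0.13 (adjusted p = 0.124) in KO, and the genotype difference at 29 °C was 1.11 ± 0.13 (adjusted p = 8.91e-06). The KO housing value passed without KO room temperature library 4 (-0.35, adjusted p = 0.0432).

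Slc25a32 carries folate or flavin nucleotides. Slc25a32 stood at 71.3, 62.6, 55.8 and 65.9 CPM in the WT and 83.2, 107, 67.9 and 85.2 CPM in the KO libraries at room temperature, and at 19.4, 18.002, 18.8 and 19.8 CPM in the WT and 24.1, 34.8 and 22.5 CPM in the KO libraries at 29 °C. It was low in all 29 °C libraries, and KO lay above WT at 29 °C while the genotypes overlapped at room temperature. Housing changed it by -1.75 ± 0.15 (adjusted p = 3.24e-08) in WT and -1.67 ± 0.16 (adjusted p = 1.79e-06) in KO. Between genotypes it measured 0.43 ± 0.14 (adjusted p = 0.255) at room temperature, among the 3 smallest p there, and 0.51 ± 0.15 (adjusted p = 0.0125) at 29 °C. The latter was not called without KO 29 °C library 2, the highest of its group (0.30, adjusted p = 0.123).

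Slc25a3, the phosphate carrier that feeds ATP synthase, was among the highest members. Slc25a3 stood at 419.8, 396, 422 and 455 CPM in the WT and 377, 378, 392 and 402 CPM in the KO libraries at room temperature, and at 240.0, 246, 239.6 and 227 CPM in the WT and 285, 304 and 278 CPM in the KO libraries at 29 °C. All groups at 29 °C lay below room temperature, with KO above WT. The housing change was -0.83 ± 0.071 (adjusted p = 4.74e-08) in WT and -0.42 ± 0.077 (adjusted p = 0.000377) in KO, and KO exceeded WT at 29 °C by 0.28 ± 0.076 (adjusted p = 0.00746). The last was not called without the 3 libraries with muscle transcripts (0.20, adjusted p = 0.231), with no filter on low counts (0.22, adjusted p = 0.0786) or in a fit of only the libraries compared (0.24, adjusted p = 0.1). Its interaction of 0.41 was not called with no filter (0.37, adjusted p = 0.0513) or without those 3 libraries (0.34, adjusted p = 0.11). Slc25a17, a coenzyme carrier placed in peroxisomes, fell from 137 ± 6.16 CPM to 34.1 ± 7.05 CPM in WT and from 134 ± 22.2 CPM to 56.0 ± 5.08 CPM in KO. Its genotype difference at 29 °C was 0.72 ± 0.15 (adjusted p = 0.000923). Without those 3 libraries this difference was 0.46 and not called. Its interaction of 0.74 (adjusted p = 0.0107) was not called without KO room temperature libraries 2 and 4 (0.56, adjusted p = 0.0626). Without the 3 libraries with muscle transcripts the interaction was 0.50 and not called.

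Slc25a33 and Slc25a36 both carry pyrimidine nucleotides, which mitochondrial DNA and RNA synthesis need. Slc25a33 averaged 53.3 ± 4.58 CPM in WT and 43.1 ± 8.61 CPM in KO at room temperature, 18.8 ± 3.15 CPM in WT and 41.9 ± 11.5 CPM in KO at 29 °C. It changed by -1.50 ± 0.17 (adjusted p = 1.34e-06) with housing in WT, by -0.038 ± 0.18 (adjusted p = 0.883) in KO, and was higher in KO at 29 °C by 1.16 ± 0.18 (adjusted p = 0.000113). Slc25a36 changed little with housing in WT (0.14 ± 0.11, adjusted p = 0.258) and was lower in KO at 29 °C (-0.31 ± 0.12, adjusted p = 0.0388) and with housing in KO (-0.35 ± 0.12, adjusted p = 0.0217). Both Slc25a36 calls were lost without KO 29 °C library 1 or 3, the first also without WT 29 °C library 1 or 3 and the second without KO room temperature library 2 or 4 (adjusted p from 0.0501 to 0.143). The first was also lost in a fit of only the libraries compared (adjusted p = 0.0924). Its interaction of -0.49 (adjusted p = 0.0296) was lost without WT room temperature library 1 or 3, KO room temperature library 2 or 4, WT 29 °C library 3, or KO 29 °C library 1 or 3 (adjusted p from 0.0502 to 0.0807).

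Slc25a23, Slc25a24 and Slc25a25 encode calcium-regulated ATP-magnesium/phosphate carriers, which set the adenine nucleotide content of the matrix. Slc25a23 stood at 154, 157, 156 and 166 CPM in the WT and 151, 168, 162 and 174 CPM in the KO libraries at room temperature, and at 48.8, 46.9, 61.4 and 51.9 CPM in the WT and 91.6, 112 and 82.0 CPM in the KO libraries at 29 °C. Warm housing lowered Slc25a23 in both genotypes without overlap, less so in KO, by -1.60 ± 0.10 (adjusted p = 2.59e-09) in WT and -0.78 ± 0.11 (adjusted p = 4.36e-05) in KO, and the interaction was 0.81 ± 0.15 (adjusted p = 0.000923). Slc25a25 stood at 19.9, 26.2, 17.0 and 18.9 CPM in the WT and 16.9, 13.5, 10.9 and 6.22 CPM in the KO libraries at room temperature, and at 57.4, 74.7, 82.2 and 47.6 CPM in the WT and 46.9, 31.7 and 36.2 CPM in the KO libraries at 29 °C. Slc25a25 went the other way: all 29 °C libraries were above all room temperature libraries. Its housing change was 1.68 ± 0.26 (adjusted p = 6.89e-05) in WT and 1.69 ± 0.28 (adjusted p = 0.000312) in KO. KO libraries were below WT libraries at both temperatures without overlap, though the nearest ones differed little (16.9 against 17.0 CPM and 46.9 against 47.6 CPM). The genotype value was -0.79 ± 0.27 (adjusted p = 0.281) at room temperature, which is not a call, and -0.77 ± 0.28 (adjusted p = 0.0365) at 29 °C. This last was not called without WT 29 °C library 2 or 3 or KO 29 °C library 2 or 3 (-0.73 to -0.65, adjusted p from 0.0731 to 0.135), or with no filter on low counts (-0.83, adjusted p = 0.0626). Slc25a25 has decimals in all its deposited values, a sign that reads were shared with other genes, and overlaps Naif1 on the opposite strand. Slc25a24 rose with housing by 1.30 ± 0.20 (adjusted p = 2.76e-05) in WT and 0.84 ± 0.21 (adjusted p = 0.00433) in KO, and its genotype value at 29 °C (-0.44 ± 0.21, adjusted p = 0.102) passed only without WT 29 °C library 1 (-0.59, adjusted p = 0.0204).

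**Figure D4:**
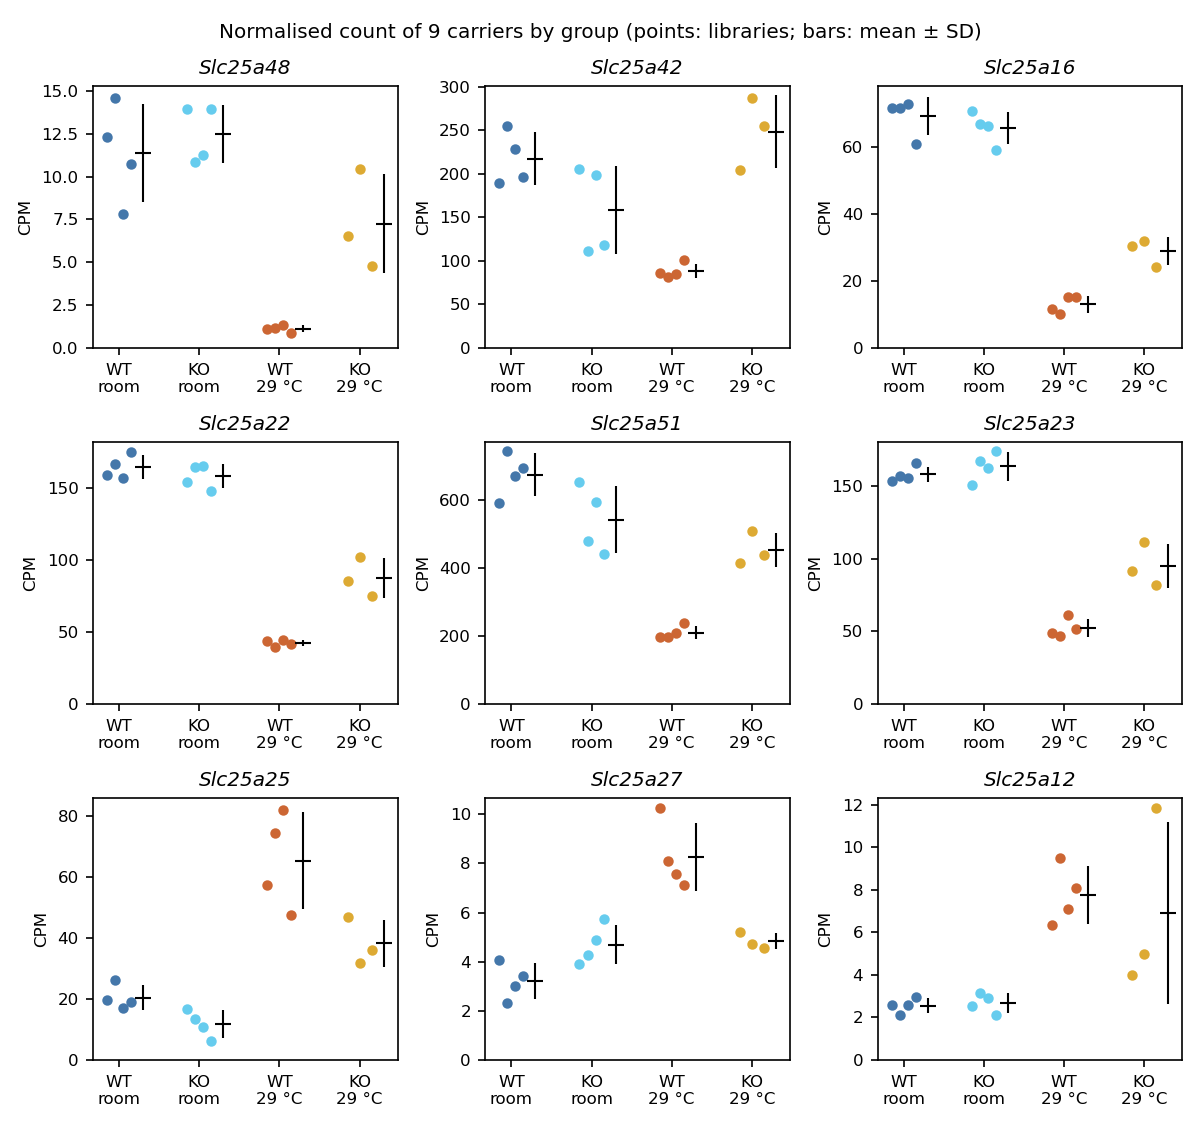
TMM-scaled CPM of 9 carriers in each library (points, coloured by group) with the mean ± SD of each group (cross and bar), on linear axes. In 6 panels (Slc25a48, Slc25a42, Slc25a16, Slc25a22, Slc25a51 and Slc25a23) the WT group at 29 °C is the lowest; in the other panels it is above both room temperature groups, and 1 KO library at 29 °C stands above the rest for Slc25a12.

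The dicarboxylate and oxoacid carriers had 2 tested members of 3. Slc25a11, the 2-oxoglutarate/malate carrier of the malate-aspartate shuttle, which brings cytosolic reducing power into the matrix, was abundant. Slc25a11 stood at 192, 194, 189.7 and 205 CPM in the WT and 199.99, 174, 181 and 167 CPM in the KO libraries at room temperature, and at 90.8, 83.5, 86.1 and 82.9 CPM in the WT and 106, 106 and 92.7 CPM in the KO libraries at 29 °C. Libraries at 29 °C were all below room temperature, and the KO libraries were just above the WT libraries at 29 °C. The housing change was -1.19 ± 0.079 (adjusted p = 2.98e-09) in WT and -0.83 ± 0.085 (adjusted p = 2.92e-06) in KO. The genotype difference at 29 °C, 0.24 ± 0.083 (adjusted p = 0.0255), was not called without KO room temperature library 3, WT 29 °C library 2 or KO 29 °C library 1 or 2 (adjusted p from 0.0606 to 0.0996), with no filter on low counts (adjusted p = 0.164) or in a fit of only the libraries compared (adjusted p = 0.178). Its interaction was 0.36 (adjusted p = 0.0267). That call was lost without any of those single libraries, or without WT or KO room temperature library 4 (adjusted p from 0.0502 to 0.0817). It was also lost with no filter (adjusted p = 0.111) and without both KO room temperature libraries 2 and 4 (0.28, adjusted p = 0.126). Without the 3 libraries with muscle transcripts the interaction was 0.34 and not called. Slc25a10, the dicarboxylate/phosphate carrier, varied within groups, from 15.9 to 57.3 CPM in KO at room temperature. It changed by -1.03 ± 0.37 (adjusted p = 0.0262) with housing in WT and -2.02 ± 0.42 (adjusted p = 0.00187) in KO. The WT call was lost without WT room temperature library 1 or 4 or WT 29 °C library 1 or 4 (adjusted p from 0.0526 to 0.0826). Its interaction of -0.9997 (adjusted p = 0.198) passed only without KO room temperature library 3 (-1.30, adjusted p = 0.046).

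Among carriers of amino acids, glutathione and methyl donors, 10 of 11 were tested. In WT 5 fell and 3 rose with housing, in KO 3 fell and 2 rose, and 4 were higher and 1 lower in KO at 29 °C. Slc25a22, a glutamate carrier, had the smallest p of all members with housing in WT and between genotypes at 29 °C. Slc25a22 stood at 159, 167, 157 and 175 CPM in the WT and 155, 165, 166 and 148 CPM in the KO libraries at room temperature, and at 43.9, 39.6, 44.2 and 41.9 CPM in the WT and 85.6, 102 and 74.9 CPM in the KO libraries at 29 °C. All 29 °C libraries lay below room temperature, and the KO libraries lay well above the WT libraries. Its values were -1.96 ± 0.093 (adjusted p = 2.37e-10) with housing in WT, -0.85 ± 0.099 (adjusted p = 7.64e-06) in KO, 1.05 ± 0.097 (adjusted p = 1.19e-06) between genotypes at 29 °C and 1.10 ± 0.13 (adjusted p = 4.1e-05) for the interaction. The second glutamate carrier, Slc25a18, averaged 0.338 ± 0.17 CPM in WT at room temperature, too low for its changes to be judged. Its KO housing value of 1.37 (adjusted p = 0.0911) passed without KO 29 °C library 1 or 3 (1.74 and 1.75, adjusted p = 0.0491 and 0.047).

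Slc25a12 and Slc25a13 encode the aspartate/glutamate carriers aralar and citrin, the other limb of the malate-aspartate shuttle. Slc25a12 stood at 2.61, 2.10, 2.56 and 2.94 CPM in the WT and 2.54, 3.16, 2.90 and 2.11 CPM in the KO libraries at room temperature, and at 6.35, 9.47, 7.09 and 8.07 CPM in the WT and 3.97, 4.96 and 11.8 CPM in the KO libraries at 29 °C. WT libraries rose with housing without overlap, and KO 29 °C library 3 was the highest of all 15. The housing change was 1.60 ± 0.28 (adjusted p = 0.000102) in WT and 1.36 ± 0.29 (adjusted p = 0.00148) in KO, and the genotype value at 29 °C was -0.17 ± 0.28 (adjusted p = 0.66). Without KO 29 °C library 3, which also had the most muscle transcripts (1558 CPM), KO was lower than WT at 29 °C by -0.80 (adjusted p = 0.00597), and the interaction was -0.87 (adjusted p = 0.0251). Without all 3 libraries with muscle transcripts these were -0.92 (adjusted p = 0.0242) and -0.98 (adjusted p = 0.0493), and the KO housing change was 0.49 (adjusted p = 0.172). Slc25a13 stood at 0.662, 0.344, 0.21 and 0.52 CPM in the WT and 0.172, 0.295, 0.242 and 0.325 CPM in the KO libraries at room temperature, and at 1.01, 0.598, 0.83 and 0.807 CPM in the WT and 0.642, 0.526 and 0.624 CPM in the KO libraries at 29 °C. Slc25a13 was near the limit of detection and its WT groups overlapped. Its housing change was 0.89 ± 0.33 in WT and 1.1955 ± 0.37 in KO. Slc25a13 passed the filter through the 29 °C groups, where it is high, so neither change is a result. The WT call was also lost without WT room temperature library 2 or 3 or WT 29 °C library 1, and with DESeq2.

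Slc25a15 carries ornithine and citrulline for the urea cycle. Slc25a15 stood at 25.6, 28.8, 25.9 and 25.8 CPM in the WT and 26.8, 25.0, 27.3 and 24.5 CPM in the KO libraries at room temperature, and at 11.2, 10.8, 11.9 and 11.9 CPM in the WT and 13.1, 14.6 and 13.3 CPM in the KO libraries at 29 °C. Levels at 29 °C were below room temperature in both genotypes, by -1.21 ± 0.08 (adjusted p = 2.97e-09) in WT and -0.92 ± 0.087 (adjusted p = 1.55e-06) in KO, and KO was above WT by 0.25 ± 0.086 (adjusted p = 0.0241). That genotype call was lost without KO room temperature library 3, WT 29 °C library 2 or KO 29 °C library 2 (adjusted p from 0.0699 to 0.108), with no filter on low counts (adjusted p = 0.172) and in a fit of only the libraries compared (adjusted p = 0.178). Slc25a39 and Slc25a40 are the glutathione carriers. Slc25a39 stood at 357, 345, 386 and 385 CPM in the WT and 410.2, 358, 342 and 317 CPM in the KO libraries at room temperature, and at 136, 128, 109 and 113 CPM in the WT and 203, 196 and 158 CPM in the KO libraries at 29 °C. Slc25a39 was highest at room temperature, lowest in WT at 29 °C, and intermediate without overlap in KO at 29 °C. Its values were -1.60 ± 0.11 (adjusted p = 3.31e-09) with housing in WT, -0.94 ± 0.12 (adjusted p = 1.22e-05) in KO and 0.61 ± 0.11 (adjusted p = 0.00039) between genotypes at 29 °C. Slc25a40 changed by -0.36 ± 0.14 (adjusted p = 0.0317) in WT, a call lost without WT room temperature library 1, 2 or 3 or WT 29 °C library 2 or 4 (adjusted p from 0.0516 to 0.118). In KO it measured -0.36 ± 0.15 (adjusted p = 0.0647), which passed without KO room temperature library 3 (-0.48, adjusted p = 0.0233) or WT 29 °C library 4 (-0.36, adjusted p = 0.0491).

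Slc25a38, the glycine carrier that haem synthesis depends on, had the smallest p among the members lower in KO at 29 °C. Slc25a38 stood at 15.1, 18.8, 15.6 and 15.8 CPM in the WT and 14.7, 14.8, 15.1 and 15.4 CPM in the KO libraries at room temperature, and at 18.2, 18.6, 22.2 and 19.8 CPM in the WT and 14.4, 13.3 and 15.1 CPM in the KO libraries at 29 °C. WT at 29 °C was the highest group but overlapped WT at room temperature, and all KO libraries at 29 °C lay below it. The values were 0.27 ± 0.092 (adjusted p = 0.0156) with housing in WT and -0.46 ± 0.10 (adjusted p = 0.00138) between genotypes at 29 °C. The WT call was lost without WT room temperature library 1 or WT 29 °C library 3 (adjusted p = 0.0533 and 0.0541) or with no filter on low counts (adjusted p = 0.0511), and the interaction of -0.34 (adjusted p = 0.0716) passed only without WT room temperature library 2 (-0.41, adjusted p = 0.0317). Slc25a26, which imports S-adenosylmethionine, fell with housing in WT by -0.64 ± 0.12 (adjusted p = 0.000139), measured 0.04 ± 0.13 (adjusted p = 0.819) in KO and was higher in KO at 29 °C by 0.67 ± 0.13 (adjusted p = 0.000443). Slc25a29, a carrier of basic amino acids, measured 0.43 ± 0.20 (adjusted p = 0.0659) with housing in WT and passed without WT room temperature library 3 (0.54, adjusted p = 0.0416) or with a filter of 1 CPM in 4 libraries (0.47, adjusted p = 0.045).

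The mitoferrins Slc25a28 and Slc25a37 bring iron into the matrix for haem and iron-sulphur clusters. Slc25a28 stood at 31.4, 31.9, 30.2 and 37.5 CPM in the WT and 33.4, 35.8, 32.2 and 38.8 CPM in the KO libraries at room temperature, and at 25.6, 24.6, 25.9 and 23.2 CPM in the WT and 25.7, 24.4 and 24.0 CPM in the KO libraries at 29 °C. All 29 °C libraries were below all room temperature libraries, and the genotypes overlapped at both temperatures. Housing changed Slc25a28 by -0.40 ± 0.086 (adjusted p = 0.000602) in WT and -0.50 ± 0.093 (adjusted p = 0.000432) in KO. Slc25a37 stood at 16.1, 12.4, 11.8 and 13.6 CPM in the WT and 11.5, 17.6, 14.5 and 14.8 CPM in the KO libraries at room temperature, and at 23.4, 24.5, 30.0 and 26.3 CPM in the WT and 19.9, 19.7 and 21.8 CPM in the KO libraries at 29 °C. Slc25a37, the form known from developing red cells, went the other way, with WT at 29 °C highest. It rose by 0.95 ± 0.13 (adjusted p = 6.3e-06) in WT and 0.49 ± 0.14 (adjusted p = 0.00808) in KO, and was lower in KO at 29 °C by -0.35 ± 0.14 (adjusted p = 0.0473). That last call was lost without WT room temperature library 2 or 4, KO room temperature library 4, WT 29 °C library 3 or 4, or any KO library at 29 °C (adjusted p from 0.0539 to 0.133). The interaction of -0.46 (adjusted p = 0.0758) passed without WT or KO room temperature library 1 (-0.56 in both, adjusted p = 0.0361 and 0.0254). Erythroid transcripts (7 of 8 markers in the table, none at 0 in any group) moved with it. They summed to 712 to 1247 CPM in WT and 616 to 978 CPM in KO at room temperature, and to 2766 to 6060 CPM in WT and 1459 to 2776 CPM in KO at 29 °C. Their part in the levels of Slc25a37 and Slc25a38 was not tested. Decimals in 86.7% of the deposited values of Slc25a37 and 46.7% of those of Slc25a28 are a sign of reads shared with other genes.

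Of the carriers that resemble uncoupling proteins, Slc25a14 and Slc25a27 rose in WT with housing and Slc25a30 fell. Slc25a27 stood at 4.05, 2.32, 3.02 and 3.42 CPM in the WT and 3.92, 4.26, 4.87 and 5.73 CPM in the KO libraries at room temperature, and at 10.3, 8.10, 7.57 and 7.14 CPM in the WT and 5.21, 4.73 and 4.58 CPM in the KO libraries at 29 °C. WT at 29 °C stood above all other libraries, and KO at 29 °C lay within the KO range at room temperature. Slc25a27 changed by 1.37 ± 0.18 (adjusted p = 4.11e-06) in WT and 0.044 ± 0.19 (adjusted p = 0.868) in KO, with an interaction of -1.32 ± 0.26 (adjusted p = 0.00146). Between genotypes it measured 0.55 ± 0.18 (adjusted p = 0.248) at room temperature, the smallest p of any member there, and -0.77 ± 0.19 (adjusted p = 0.00323) at 29 °C. Slc25a14 stood at 1.49, 2.23, 1.47 and 1.69 CPM in the WT and 1.38, 1.98, 1.85 and 1.46 CPM in the KO libraries at room temperature, and at 3.12, 3.32, 4.60 and 3.63 CPM in the WT and 2.28, 2.89 and 2.22 CPM in the KO libraries at 29 °C. In each genotype all 29 °C libraries were above the room temperature libraries, and the KO ones lay below the WT ones at 29 °C. Its changes were 1.09 ± 0.20 (adjusted p = 0.00014) in WT, 0.56 ± 0.21 (adjusted p = 0.0427) in KO and -0.58 ± 0.21 (adjusted p = 0.0344) between genotypes at 29 °C. The genotype call was lost without WT 29 °C library 3 or KO 29 °C library 1 or 3 (adjusted p from 0.0998 to 0.112). The KO housing call was lost without WT room temperature library 4, KO room temperature library 1, 3 or 4, or any KO library at 29 °C (adjusted p from 0.0522 to 0.161), with no filter (adjusted p = 0.117), with DESeq2 (adjusted p = 0.0609) and in a fit of only the libraries compared (adjusted p = 0.0636). Slc25a30 changed by -0.61 ± 0.23 (adjusted p = 0.0263) in WT, a call lost without WT room temperature library 2 or WT 29 °C library 1 or 3 (adjusted p from 0.0641 to 0.144).

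The remaining class holds carriers whose substrate is debated or that sit elsewhere, with 7 tested of the 8 in the table. All 7 passed with housing in WT, 5 lower and 2 higher. Slc25a48, linked to mitochondrial choline import, showed the largest differences of all tested members with housing in WT, between genotypes at 29 °C and in the interaction. Slc25a48 stood at 12.3, 14.6, 7.81 and 10.7 CPM in the WT and 14.0, 10.8, 11.2 and 13.9 CPM in the KO libraries at room temperature, and at 1.11, 1.16, 1.35 and 0.848 CPM in the WT and 6.54, 10.4 and 4.78 CPM in the KO libraries at 29 °C. WT libraries at 29 °C lay far below every other library, and KO at 29 °C lay above them and overlapped the WT room temperature range. The log2 fold change was -3.34 ± 0.25 (adjusted p = 1.63e-08) with housing in WT (10.1-fold lower) and 2.68 ± 0.26 (adjusted p = 1.88e-06) in KO against WT at 29 °C (6.43-fold higher). In KO, housing changed it by -0.79 ± 0.24 (adjusted p = 0.0133), a call lost without KO 29 °C library 1 or 3 (adjusted p = 0.0535 and 0.0745). The interaction was 2.55 ± 0.34 (adjusted p = 9.06e-05). None of the searched motifs was in its upstream sequence printed above.

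Slc25a45 stood at 4.05, 3.91, 3.53 and 2.77 CPM in the WT and 4.35, 4.13, 3.50 and 3.94 CPM in the KO libraries at room temperature, and at 9.95, 8.37, 7.75 and 8.03 CPM in the WT and 7.06, 6.72 and 6.93 CPM in the KO libraries at 29 °C. Slc25a45 was higher at 29 °C without overlap in both genotypes, by 1.26 ± 0.14 (adjusted p = 6.23e-07) in WT and 0.79 ± 0.14 (adjusted p = 0.000371) in KO. Its KO libraries at 29 °C were below the WT ones, at -0.30 ± 0.14 (adjusted p = 0.0952), which passed only without KO room temperature library 3 (-0.36, adjusted p = 0.0479). Slc25a46, an outer membrane protein that acts in mitochondrial fission and fusion, averaged 117 ± 6.26 CPM in WT at room temperature and 46.8 ± 5.34 CPM at 29 °C, against 83.9 ± 14.1 CPM in KO at 29 °C. It changed by -1.32 ± 0.11 (adjusted p = 2.23e-08) in WT and 0.84 ± 0.11 (adjusted p = 2.36e-05) between genotypes at 29 °C. Its KO housing value of -0.33 ± 0.11 (adjusted p = 0.0245) was lost without KO room temperature library 1 or KO 29 °C library 1 or 3 (adjusted p from 0.0636 to 0.139). Slc25a35 followed a like order, with -1.85 ± 0.14 (adjusted p = 1.26e-08) in WT, -0.96 ± 0.15 (adjusted p = 9.98e-05) in KO and 1.003 ± 0.15 (adjusted p = 5.61e-05) between genotypes at 29 °C. Slc25a34 fell with housing by -2.09 ± 0.41 (adjusted p = 0.000529) in WT and -1.31 ± 0.44 (adjusted p = 0.0257) in KO, the latter lost without KO room temperature library 1 or 3 or any KO library at 29 °C (adjusted p from 0.0519 to 0.0855) and in a fit of only the libraries compared (adjusted p = 0.0506). Slc25a47, best known from liver, rose in WT by 0.76 ± 0.23 (adjusted p = 0.007), and Slc25a53 fell by -0.72 ± 0.28 (adjusted p = 0.0287). Slc25a53 was higher in KO at 29 °C by 0.78 ± 0.29 (adjusted p = 0.0381). Its WT call was lost without WT room temperature library 1 or 4 or WT 29 °C library 2 or 3 (adjusted p from 0.0504 to 0.098). Its genotype call was lost without WT 29 °C library 1, 2 or 3 or KO 29 °C library 2 or 3 (adjusted p from 0.0533 to 0.158), with DESeq2 (adjusted p = 0.0732), with no filter on low counts (adjusted p = 0.1) and in a fit of only the libraries compared (adjusted p = 0.0727). The WT call was also lost with DESeq2 and with no filter (adjusted p = 0.0532 and 0.0506).

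Pairs of carriers are compared below, most of them with like substrates. Slc25a35 and Slc25a34 are of debated substrate, and Slc25a12 and Slc25a11 are limbs of the malate-aspartate shuttle with different substrates. For each pair the ratio within each library is given as log2 of the counts. The pairs were chosen after the values were seen, and no test was run. The size of such a ratio depends on the lengths of the genes, whereas its shift between groups does not. Slc25a25 over Slc25a23 averaged -2.97 ± 0.27 in WT and -3.88 ± 0.69 in KO at room temperature, 0.30 ± 0.34 in WT and -1.32 ± 0.44 in KO at 29 °C. Slc25a24 over Slc25a23 averaged -5.46 ± 0.25, -5.48 ± 0.16, -2.60 ± 0.39 and -3.84 ± 0.32 in the same order. For both, WT at 29 °C was the highest group and KO at 29 °C stood between it and room temperature. Slc25a37 over Slc25a28 averaged -1.29 ± 0.22, -1.28 ± 0.23, 0.07 ± 0.16 and -0.27 ± 0.12, and Slc25a33 over Slc25a36 -0.26 ± 0.13, -0.76 ± 0.39, -1.90 ± 0.37 and -0.46 ± 0.45. The coenzyme A pair, Slc25a42 over Slc25a16, rose at 29 °C in both genotypes, from 1.64 ± 0.18 and 1.22 ± 0.41 in WT and KO to 2.78 ± 0.23 and 3.10 ± 0.34. Slc25a39 over Slc25a40 fell from 5.28 ± 0.17 and 5.31 ± 0.10 to 4.06 ± 0.34 and 4.73 ± 0.12. Slc25a12 over Slc25a13 averaged 2.68 ± 0.68, 3.40 ± 0.50, 3.26 ± 0.55 and 3.37 ± 0.82 in the order of groups used above, with overlap among all groups. Slc25a35 over Slc25a34 averaged 3.24 ± 0.74, 3.51 ± 1.03, 3.38 ± 0.65 and 3.70 ± 0.36, also with overlap among all groups. The glutamate pair, Slc25a22 over Slc25a18, averaged 9.10 ± 0.90, 10.02 ± 0.72, 7.29 ± 0.72 and 8.04 ± 1.15, with few Slc25a18 counts. Its KO groups did not overlap (9.35 to 10.8 and 6.71 to 8.76), while its WT groups did. For the malate-aspartate shuttle, Slc25a12 over Slc25a11 averaged -6.27 ± 0.18, -6.09 ± 0.26, -3.49 ± 0.30 and -4.04 ± 0.94. All its 29 °C values were above all room temperature values.

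**Figure D5:**
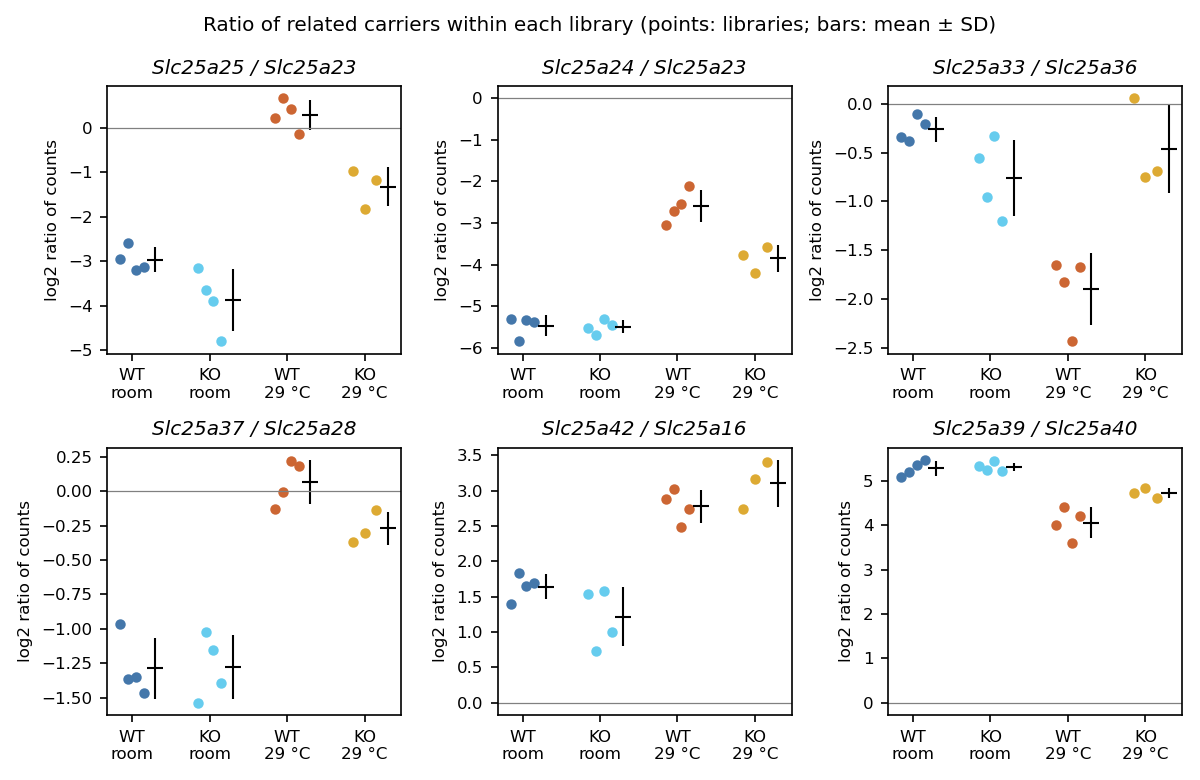
Log2 ratio of the counts of 6 pairs of carriers within each library (points, coloured by group), with the mean ± SD of each group. The pairs have like substrates and were chosen after the values were seen. The grey line marks equal counts. Slc25a25 counts exceed those of Slc25a23 in 3 of the 4 WT libraries at 29 °C and in no library of another group.

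Carrier proteins reach the inner membrane through Tomm70a, the outer membrane pore, the small Timm chaperones and the Timm22 translocase. Of 15 tested genes of this route, 11 were lower and 1 higher with housing in WT, 5 lower and 1 higher in KO, and 10 higher and 1 lower in KO against WT at 29 °C, against the same shares of all genes as above. The median log2 fold changes were -0.62, -0.20 and 0.39. Agk, a subunit of that translocase, changed by -1.25 ± 0.089 (adjusted p = 5.96e-09) in WT and 0.86 ± 0.094 (adjusted p = 4.18e-06) in KO against WT at 29 °C. Tomm70a, the receptor for carriers, changed by -1.10 ± 0.097 (adjusted p = 6.14e-08) and 0.88 ± 0.10 (adjusted p = 7.73e-06), and the chaperone Timm10 by -1.13 ± 0.12 (adjusted p = 3.62e-07) and 0.96 ± 0.12 (adjusted p = 1.79e-05). Timm13 was the 1 gene of the route lower in KO at 29 °C (-0.54 ± 0.11, adjusted p = 0.000643).

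Of 24 other mitochondrial membrane transporters tested, 18 were lower and 3 higher with housing in WT (68.8% of all genes called), 15 lower and 4 higher in KO (46%), and 15 higher and 2 lower in KO against WT at 29 °C (44.7%). The pyruvate carrier subunit Mpc2 changed by -2.35 ± 0.11 (adjusted p = 2e-10) in WT and 1.10 ± 0.11 (adjusted p = 1.85e-06) in KO against WT at 29 °C, the porin Vdac1 by -1.52 ± 0.081 (adjusted p = 5.1e-10) and 0.87 ± 0.085 (adjusted p = 1.73e-06), and the cation exchanger Letm1 by -2.57 ± 0.11 (adjusted p = 1.17e-10) and 1.07 ± 0.11 (adjusted p = 2.4e-06). Nnt, the proton-coupled transhydrogenase, was higher with housing in WT (1.58 ± 0.16, adjusted p = 2.29e-07) and lower in KO at 29 °C (-0.64 ± 0.16, adjusted p = 0.00475). Of 6 enzymes that work with the carriers in the NADH shuttles, all 6 were lower with housing in WT (32.8% of all genes), 4 in KO (21.7%), and 5 were higher in KO at 29 °C (24.7%). Gpd2, the mitochondrial glycerol-3-phosphate dehydrogenase, changed by -2.89 ± 0.13 (adjusted p = 1.61e-10) in WT and 1.65 ± 0.13 (adjusted p = 2.94e-07) in KO against WT at 29 °C, and Mdh1, the cytosolic malate dehydrogenase, by -1.75 ± 0.11 (adjusted p = 2.74e-09) and 0.91 ± 0.12 (adjusted p = 2.08e-05).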

How the data were processed

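Bulk RNA of brown adipose tissue was measured in 15 libraries of 4 groups, taken from the sample titles. Per the submitters' processing notes, the authors aligned reads to mm10 by STAR 2.7.10a, counted them by RSEM 1.2.28 and used DESeq2, listed as 1.3.40. How strand was handled is not stated in those notes. The deposited table holds expected counts estimated by the authors per gene symbol and library, of which 7.26% have decimals. They were rounded to whole counts, and totals ran from 23977448 to 38800967 per library. Genes passing filterByExpr by group at a minimum count of 10 (15083) were scaled by TMM and fitted with edgeR 4.0.16 (robust quasi-likelihood, limma 3.58.1, R 4.3.3), with 4 group means and 11 residual degrees of freedom. P-values were adjusted by Benjamini-Hochberg over all genes in each comparison, with calls at an adjusted p under 0.05, and the SE was the log2 fold change divided by the root of F. Exon lengths came from merged GENCODE exons of mm10, and figures and lists were made with Python 3.11.15. The fit was tested on simulated counts with known changes in a small part of the genes. That simulation does not show how the fit behaves where most genes change.

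The members and lists were chosen with earlier results of these data known. All tested members could be named. Library values are given for the 3 called members with the smallest p in each direction of each pairwise comparison, the 3 with the smallest p in the interaction and at room temperature between genotypes, the 3 highest per kilobase, and 6 examples of classes, together 20. One of the members counted here is not reported by name, value or figure. Other lists name up to 4 called genes. Alternatives were RLE size factors, no filter, a filter of 1 CPM in 4 libraries, a fit of only the groups compared, a fit with a replicate block, DESeq2 1.42.0, an adjusted p under 0.01, a fold over 1.5, and leaving out each library. Leaving out the 3 libraries with muscle transcripts, or KO room temperature libraries 2 and 4, was added after the data were seen. No protein sequences were used here.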

Additional observations from a re-analysis of the deposited data

Results flagged for a closer look

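In 108 groups of 4 libraries (each tested member in the 3 groups of that size), 3 values stood apart from the others of their group by a gap that chance alone would produce in a share of 0.05 of groups. A count of 3 in 108 lies below that share, so it does not exceed what chance would give. Slc25a15 measured 28.8 CPM in WT room temperature library 2, against 25.6 to 25.9 CPM in the other 3. Slc25a16 measured 60.8 CPM in WT room temperature library 4, against 71.6 to 73.0 CPM. Slc25a24 measured 2.75 CPM in WT room temperature library 2, against 3.86 to 3.98 CPM.

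The genotype difference at 29 °C differed from that at room temperature, by edgeR's interaction test with Benjamini-Hochberg adjustment, for 17 members. On the log2 scale the values included 0.41 for Slc25a3, 0.36 for Slc25a11, 1.23 for Slc25a16, 0.74 for Slc25a17, 1.10 for Slc25a22, 0.81 for Slc25a23, 0.68 for Slc25a26 and 1.46 for Slc25a33. They were 0.89 for Slc25a35, 0.66 for Slc25a39, 1.95 for Slc25a42, 0.99 for Slc25a46, 2.55 for Slc25a48 and 1.42 for Slc25a51. Slc25a27 at -1.32 and Slc25a36 at -0.49 were the negative ones.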

How the results depend on the processing

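No called value changed sign under any alternative run. With 1 library left out, the number of carriers called ranged from 0 to 0 between genotypes at room temperature, 18 to 24 at 29 °C (24 with all libraries), 29 to 33 with housing in WT (33), 20 to 25 with housing in KO (24) and 15 to 18 in the interaction (17). The share of all genes called ranged there from 0.0332 to 0.399%, 35 to 44.7%, 65 to 68.9%, 35.8 to 48.4% and 21.3 to 29.8% in the same order. The count between genotypes at 29 °C was 15 with a fold over 1.5 and 15 without the 3 libraries with muscle transcripts, where 1 KO library remains at 29 °C. Without KO room temperature libraries 2 and 4, of 37 tested members 0, 23, 33, 22 and 13 were called in the same order. Of all genes, 0.0325%, 43.8%, 68.2%, 34.9% and 20.7% were called there. The fit with a replicate block called 0, 21, 32, 25 and 15 members in that order, and 0.166%, 42%, 68.1%, 44.4% and 26.8% of all genes. Libraries that share a replicate number did not deviate together, with correlations from -0.276 to 0.33 over the 4 comparisons, so the numbers were not taken as pairs. With that block the genotype calls at 29 °C of Slc25a15, Slc25a36 and Slc25a37 (adjusted p = 0.0509, 0.0663 and 0.0822), the WT housing call of Slc25a10 (0.0638) and the interaction call of Slc25a36 (0.0518) were not made, and the KO housing value of Slc25a40 became a call (0.0287). Over all member values and alternatives, 155 were calls that were lost, 21 became calls and 3903 kept their side of the threshold. Over all genes, the 36 calls between genotypes at room temperature became 223 with DESeq2, 60 without KO room temperature library 1, 58 without library 3, 5 without library 2 or library 4, and 5 without both. They became 7, 16 and 11 without WT room temperature libraries 2, 3 and 4, 19 without KO 29 °C library 2, and 13 without the 3 libraries with muscle transcripts. With 3 or 4 libraries a group, small changes of carriers near 1 CPM or lower, such as Slc25a13 and Slc25a18, are beyond what these counts resolve.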
